A study of Mus musculus with 4 samples.

Results

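The genes by which septal cholinergic neurons make, store, recapture and break down acetylcholine were examined in RNA sequencing of mouse brain septal tissue, together with the transcription factors that specify those neurons. Members were chosen by symbol from the listed rows: Chat, Slc18a3 and Slc5a7 for synthesis and transport, Ache for breakdown, and Lhx8, Gbx1 and Isl1 as specifying factors. All 7 were among the 15409 gene rows of every library, and all 7 passed the filter of a mean of at least 1 CPM (reads scaled to the library's total), which kept 13912 genes. The tissue came from WT mice and from TCRb-/- mice, whose T cells cannot build the alpha-beta antigen receptor. Mice of both genotypes were restrained for 30 min on 3 days and killed 1.5 h after the last session, so no unstressed animals enter the comparison. There were 4 libraries, 1 of each genotype in each of 2 experiments, and each library pooled the tissue of 4 to 5 mice. The labels read here state no age, sex or strain. With 2 pools per genotype, p-values rest on the spread between pools and not on that between single mice. The fits (limma) also draw on the spread of other genes. In genotype fits without the experiment as a term, the difference between experiments is part of that spread.

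Acetylcholine is made from choline and acetyl-CoA by choline acetyltransferase, packed into synaptic vesicles by the vesicular acetylcholine transporter, and cleared from the synapse by acetylcholinesterase, after which the freed choline is taken back up by the high-affinity choline transporter. In the septum these genes mark the neurons of the medial septum and diagonal band, which project to the hippocampus and take part in arousal, attention and the theta rhythm. Neurons of this kind arise in the ventral forebrain, where the homeodomain factors Lhx8, Isl1 and Gbx1 are expressed. The neighbouring striatum holds cholinergic interneurons with much the same genes, and the medial habenula is another cholinergic nucleus near the septum.

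Chat and Slc18a3 form a single locus on chromosome 14, and their upstream sequences are shown because the data below compare the 2 transcripts of that locus. In GENCODE M21 (GRCm38), Chat lies on the minus strand from 32408203 to 32465989 in 17 exon blocks, and Slc18a3 lies from 32462438 to 32464850 on the same strand as 1 exon. The start of Slc18a3 is 1139 bases downstream of the start of Chat, within the first intron of Chat, and the exons of the genes share 0 bases. The RefSeq sequences immediately upstream (GRCm38.p6, minus strand, 5′ to 3′) have in capitals the matches to 2 motifs, the core of the cyclic AMP response element (TGACG, or CGTCA on the other strand) and the E-box CACGTG. They run over chr14:32465990-32466159 for Chat and chr14:32464851-32465100 for Slc18a3.
Chat: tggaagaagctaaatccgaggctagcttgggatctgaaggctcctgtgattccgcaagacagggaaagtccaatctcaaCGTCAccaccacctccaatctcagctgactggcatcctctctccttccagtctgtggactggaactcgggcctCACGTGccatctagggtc
Slc18a3: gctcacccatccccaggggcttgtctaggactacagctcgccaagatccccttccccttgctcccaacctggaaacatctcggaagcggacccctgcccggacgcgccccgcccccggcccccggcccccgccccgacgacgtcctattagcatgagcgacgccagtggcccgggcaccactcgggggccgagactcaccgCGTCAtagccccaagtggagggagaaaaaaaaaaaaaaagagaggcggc

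Both windows held TGACG, which 17.9% of 27025 upstream windows of 250 bases held on either strand, and Chat alone of the pair held CACGTG, which 6.05% of windows held. The homeodomain core TAATTA was searched as well. It was in 4.90% of all windows and in 0 of the 6 windows of members in the RefSeq table, which says only that these letters are not in these windows. Gbx1 was not matched in that table. The Chat sequence above leaves out the last 80 bases of its window because GENCODE places them in the first exon, and 59 bases of the Slc18a3 window lie in an exon of the antisense RNA gene Gm2990. The share of G and C was 54.7% in the Chat sequence and 66.0% in the Slc18a3 sequence.

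**Figure D1:**
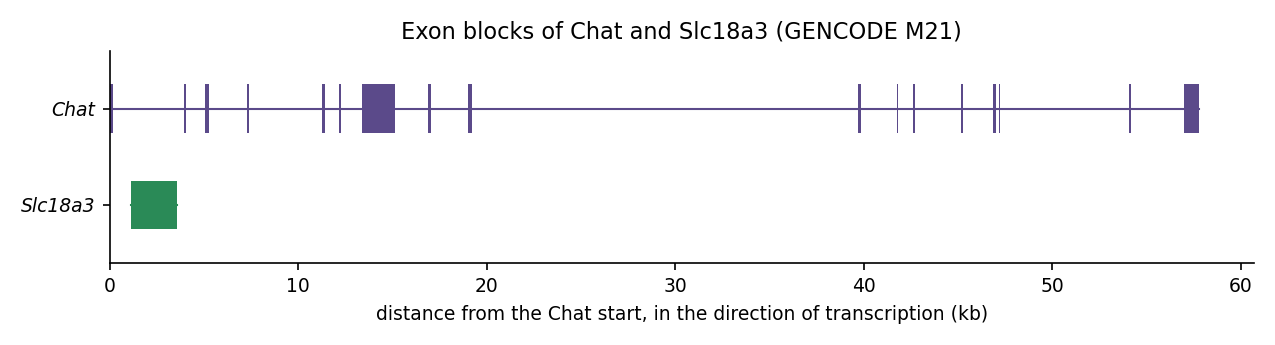
Exon blocks of Chat (upper line) and Slc18a3 (lower line) against the distance from the Chat start in kilobases, in the direction of transcription. The 1 exon of Slc18a3 sits inside the first intron of Chat, 1139 bases from the Chat start.

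As levels per kilobase of annotated exon (CPM per kb, mean over the 4 libraries with the lowest and highest), Ache was the most abundant at 50.3 (41.9 to 62.4). Lhx8 followed at 15.8 (12.4 to 18.8) and Isl1 at 11.7 (10.6 to 13.2), and the ranges of these 2 factors overlapped. Slc18a3 stood next at 6.04 (4.69 to 6.89), clear of its neighbours on both sides. Slc5a7 at 2.50 (1.48 to 3.41), Chat at 2.42 (1.80 to 3.37) and Gbx1 at 2.27 (2.01 to 2.70) overlapped and cannot be ordered. Chat was thus lower per kilobase than Slc18a3 of the same locus in every library. Reads of unspliced Chat RNA over the Slc18a3 exon could count as Slc18a3, and their part was not tested. Ache is also made by neurons that do not release acetylcholine, and Isl1 and Lhx8 by other ventral forebrain neurons.

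The libraries held between 19988137 and 26210790 reads, so that 1 read was worth 0.038 to 0.050 CPM. As a check of the genotype, Trbc2, which encodes a constant region of the missing receptor chain, had 0 reads in TCRb-/- (upper limits at 3 reads of 0.122 and 0.150 CPM) and 6.45 and 3.85 CPM in the WT libraries of experiments 1 and 2. One library stood apart from the rest: in TCRb-/- of experiment 2, 17 of 17 striatum markers were at their lowest and 17 of 17 choroid plexus markers at their highest.

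The main comparison set the cholinergic genes of restrained TCRb-/- mice against those of restrained WT mice. Chat, Slc18a3, Slc5a7 and Lhx8 were lower in TCRb-/- in both experiments, Ache was higher in both, and Gbx1 and Isl1 went opposite ways in the 2 experiments. The sizes ran from 0.679-fold for Chat to 1.10-fold for Ache (ratio of genotype means). In limma 0 of 7 passed an adjusted p of 0.05, whether or not the experiment was a block. Tissue with fewer cholinergic neurons and tissue with less of these RNAs per neuron cannot be told apart in such bulk samples.

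Chat, the enzyme that makes acetylcholine and the defining gene of these neurons, had 9.92 and 8.46 CPM in TCRb-/- of experiments 1 and 2 (244 and 169 reads), against 15.8 and 11.2 CPM in WT (415 and 251 reads). Both TCRb-/- libraries lay below both WT libraries, and WT of experiment 1 was the highest of all. The means were 9.19 ± 1.04 and 13.5 ± 3.26 CPM (SD, n = 2 each). TCRb-/- had 62.7% of the WT level in experiment 1 and 75.3% in experiment 2, with exact 95% counting intervals of the ratio from 0.533 to 0.736 and from 0.616 to 0.919. Those intervals allow only for the sampling of reads and leave out the spread between pools. Reads amplified without molecular tags do not count single molecules, so the true counting error can be larger than the intervals show. On the log2(CPM + 1) scale the difference was -0.50 (limma SE 0.22, 95% interval -1.06 to 0.06). It was -0.39 without TCRb-/- of experiment 2 and -0.27 without WT of experiment 1, the library with the most Chat. With the experiment as a block the SE was 0.13 and the interval -0.81 to -0.19, with an unadjusted p of 0.00619 and an adjusted p of 0.848. Over all settings with the 4 libraries the adjusted p ran from 0.805 to 1.00.

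Slc18a3, the vesicular transporter, had 16.1 and 11.3 CPM in TCRb-/- and 16.6 and 14.3 CPM in WT of experiments 1 and 2. The genotypes overlapped, because TCRb-/- of experiment 1 was above WT of experiment 2. Within experiment 1 the ratio of TCRb-/- to WT was 0.966 (counting interval 0.841 to 1.11), and within experiment 2 it was 0.792 (0.665 to 0.943). The difference on the log2(CPM + 1) scale was -0.18 (SE 0.22, 95% interval -0.73 to 0.37, limma). With the experiment as a block the SE was 0.13 and the interval -0.47 to 0.11. Without TCRb-/- of experiment 2, in a fit with no block that unbalances the experiments, the difference turned to 0.06. Within experiments 1 and 2 it was -0.047 and -0.31.

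Slc5a7, the high-affinity choline transporter that limits the rate of acetylcholine synthesis, had 16.8 and 8.35 CPM in TCRb-/- and 19.3 and 11.9 CPM in WT. The order of the libraries followed the experiment first, with both experiment 2 libraries under both of experiment 1, and the genotype second. The ratios were 0.874 (counting interval 0.766 to 0.997) and 0.702 (0.575 to 0.855) in experiments 1 and 2. The log2 difference was -0.32 (SE 0.38, 95% interval -1.28 to 0.63), and with the block it had an SE of 0.13 and an unadjusted p of 0.0369 (adjusted 0.848; 0.847 to 1.00 over all settings with the 4 libraries, limma). Without TCRb-/- of experiment 2 it was 0.14, and without WT of experiment 1 it was 0.0024. Those fits had no block and unbalance the experiments, which themselves differed for this gene. Within experiments 1 and 2 the difference was -0.18 and -0.46.

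**Figure D2:**
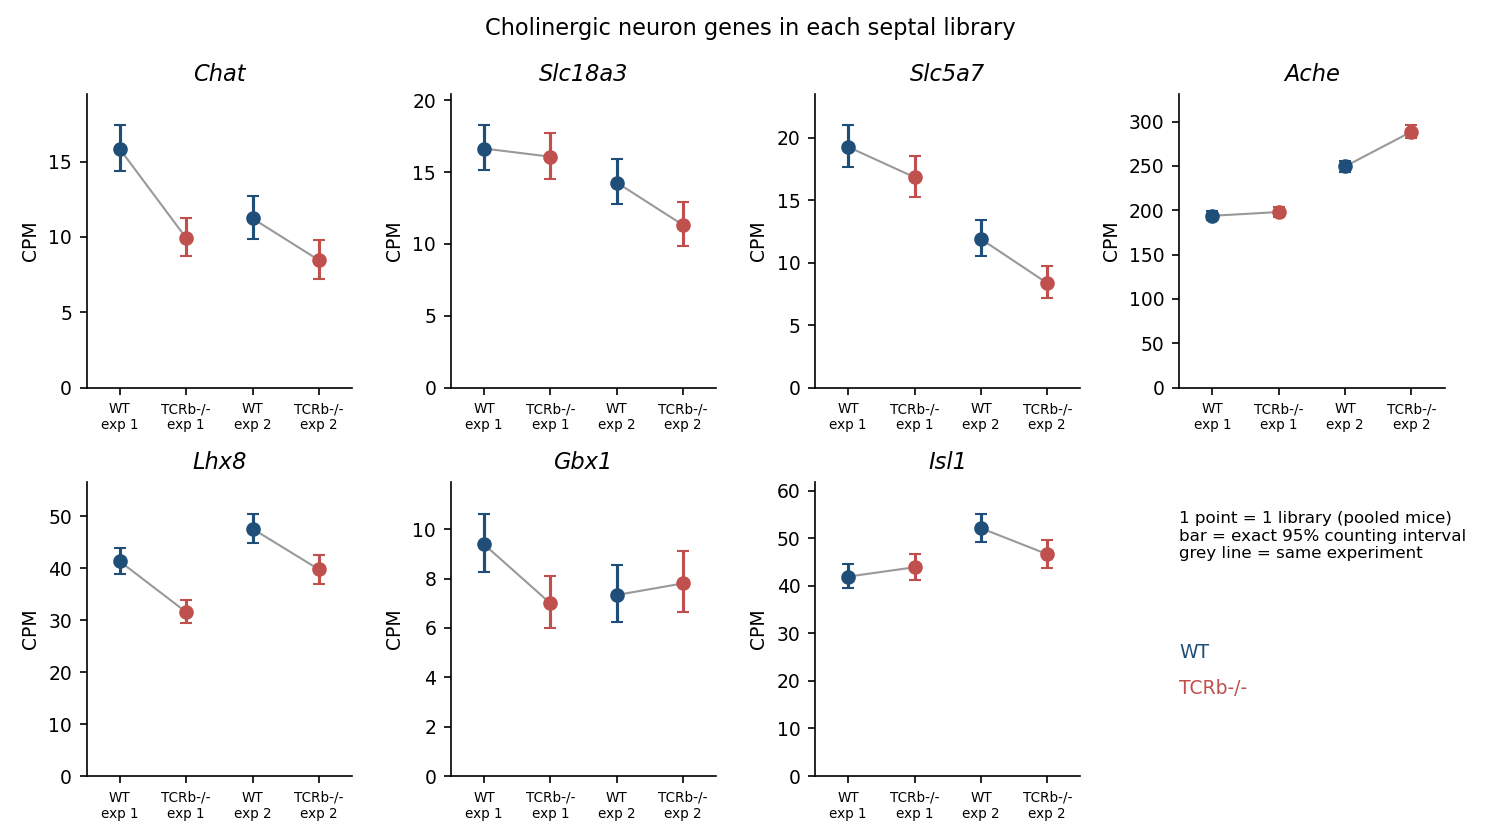
Level of each cholinergic neuron gene in CPM (vertical axis, from 0) in the 4 libraries, WT in blue and TCRb-/- in red, with exact 95% counting intervals as bars and a grey line joining the libraries of an experiment. Chat and Lhx8 have both TCRb-/- points below both WT points, and Ache is higher in experiment 2 in both genotypes.

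The balance of the reads counted for the 2 genes of the locus was then taken within each library, which needs no scaling between libraries. Because the Slc18a3 exon lies inside a Chat intron on the same strand, reads of unspliced Chat RNA could count as Slc18a3. Their part in these shares was not tested. Chat made up 38.2% of the reads of the pair in TCRb-/- of experiment 1 (exact 95% interval 34.4 to 42.1, 639 reads) and 48.8% in WT (45.4 to 52.2, 851 reads). In experiment 2 the shares were 42.8% in TCRb-/- (37.8 to 47.8, 395 reads) and 44.0% in WT (39.9 to 48.2, 570 reads). The counting intervals were apart in experiment 1 and overlapped in experiment 2. In both experiments the pair together was lower in TCRb-/-, at 26.0 against 32.5 CPM and at 19.8 against 25.5 CPM.

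Ache, acetylcholinesterase, went the other way. It had 198 and 289 CPM in TCRb-/- and 194 and 249 CPM in WT of experiments 1 and 2. The genotypes overlapped, and the ratio was 1.02 (counting interval 0.982 to 1.06) in experiment 1 and 1.16 (1.11 to 1.20) in experiment 2. The log2 difference was 0.12 (SE 0.23, 95% interval -0.46 to 0.70, limma). With the experiment as a block the SE was 0.073 and the interval -0.049 to 0.29. The difference turned to -0.15 without TCRb-/- of experiment 2 and to -0.061 without WT of experiment 1. Those fits had no block and unbalance the experiments, and within experiments 1 and 2 the difference was 0.031 and 0.21. Of the exon length of Ache, 98 of 4623 bases overlap exons of Gm42456 on the other strand, and the sources read here do not say whether counting used the strand.

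Of the specifying factors, Lhx8, the LIM-homeodomain factor required for basal forebrain cholinergic neurons, had 31.5 and 39.7 CPM in TCRb-/- and 41.3 and 47.5 CPM in WT of experiments 1 and 2. Both TCRb-/- libraries lay below both WT libraries, as for Chat, with means of 35.6 ± 5.80 and 44.4 ± 4.43 CPM (SD, n = 2 each). The ratios were 0.764 (counting interval 0.695 to 0.838) and 0.836 (0.761 to 0.917). Its log2 difference was -0.32 (SE 0.17, 95% interval -0.75 to 0.12), and with the block the SE was 0.088 and the unadjusted p 0.00742 (adjusted 0.848; 0.847 to 1.00 over all settings with the 4 libraries, limma). Leaving out any single library kept the sign, from -0.48 to -0.15.

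Gbx1, a homeodomain factor, had the fewest reads, between 156 and 246 per library. It had 6.996 and 7.80 CPM in TCRb-/- and 9.39 and 7.33 CPM in WT, so that WT of experiment 1 stood above the other 3 libraries. Isl1, a LIM-homeodomain factor, had 43.9 and 46.6 CPM in TCRb-/- and 41.9 and 52.1 CPM in WT. Both genes overlapped between genotypes. Their log2 differences were -0.15 (SE 0.20, 95% interval -0.65 to 0.35) for Gbx1 and -0.05 (SE 0.16, 95% interval -0.45 to 0.35, limma) for Isl1. With the experiment as a block the intervals were -0.52 to 0.22 for Gbx1 and -0.26 to 0.16 for Isl1. All of those intervals leave room for a change of either sign.

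**Figure D3:**
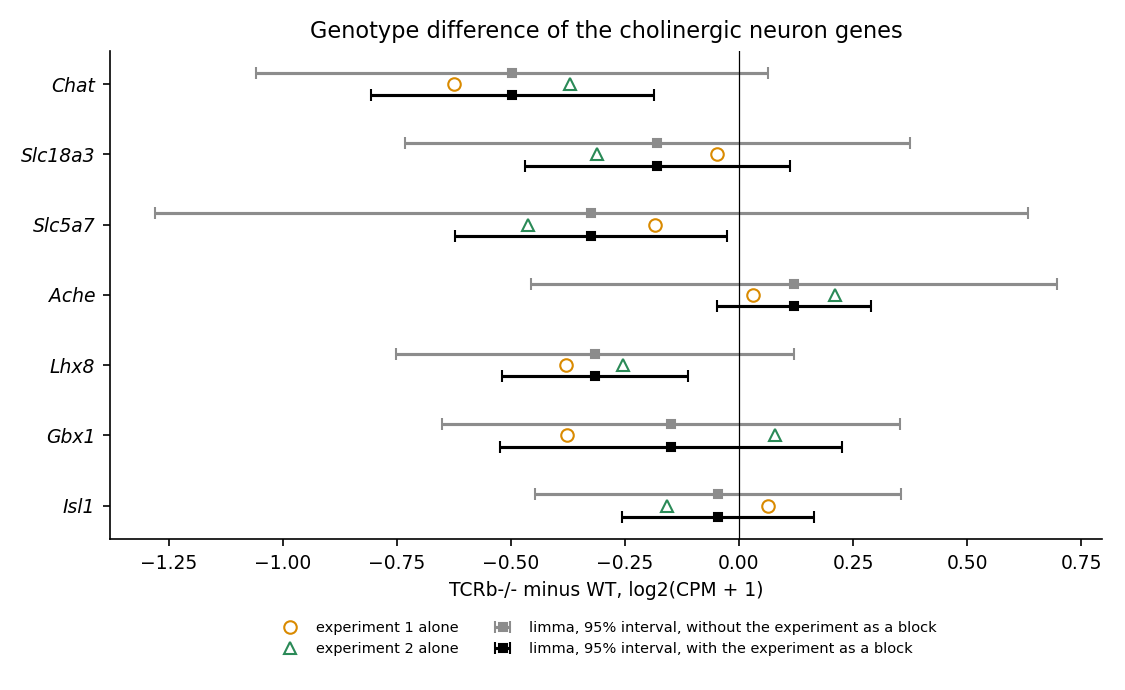
Difference TCRb-/- minus WT of each gene on the log2(CPM + 1) scale, as the limma estimate with its 95% interval without (grey) and with (black) the experiment as a block, and as the value of each experiment alone (open circle and triangle). All 7 intervals without the block reach over 0, while those of Chat, Slc5a7 and Lhx8 with the block do not.

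Counted together, 0 of 7 members passed the adjusted threshold of 0.05 by genotype in limma without the block, against 0.0% of all genes. With the block it was again 0 of 7, against 0.0144% of all genes, 0.00719% higher and 0.00719% lower. Unadjusted p-values under 0.05 were found for 0 of 7 without the block (0.309% of all genes). With the block they were found for Chat, Slc5a7 and Lhx8, 3 of 7, against 5.64% of all genes. Lower in TCRb-/- in both experiments were 4 of 7 members against 24.5% of all genes, and higher in both 1 of 7 against 27.0%. Genotypes that did not overlap with TCRb-/- below were found for 2 of 7, against 8.04% of genes, and with TCRb-/- above for 0 of 7, against 9.76%. The median log2 difference of the 7 was -0.18, beside 0.00069 over all genes tested. Among the 13912 genes, 0.503% had a lower genotype difference than Chat, 2.25% a lower one than Slc5a7 and 2.39% a lower one than Lhx8. For the other members this share was 9.26% (Slc18a3), 12.6% (Gbx1), 34.2% (Isl1) and 82.2% (Ache). The members were chosen with earlier results of these data known, so these shares are descriptive. With 2 libraries per genotype an exact two-sided permutation test of a single gene cannot give a p below 0.333.

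The experiments, which the labels call batches, differed more than the genotypes for several members. Ache rose from experiment 1 to experiment 2 by 0.45 on the log2(CPM + 1) scale (SE 0.080, adjusted p 0.00975 in limma), in both genotypes. Slc5a7 fell by 0.79 (SE 0.17, adjusted p 0.0169), by 0.93 in TCRb-/- and by 0.65 in WT. Those 2 of 7 compare with 23.7% of all genes called, 8.95% higher and 14.7% lower in experiment 2. With genotype as a term the same 2 members passed, against 24.7% of all genes, 9.29% higher and 15.4% lower. Over all settings with the 4 libraries the adjusted p ran from 0.00566 to 0.0605 for Ache and from 0.00655 to 0.0588 for Slc5a7, and both lost the call when moderation used no mean-variance trend. Slc5a7 also lost it without TCRb-/- of experiment 1 (0.0530) and without WT of experiment 1 (0.0836).

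The other 5 members did not pass between experiments. Chat had a log2 difference of -0.33 (SE 0.22, adjusted p 0.297), Slc18a3 -0.34 (SE 0.14, 0.108), Lhx8 0.26 (SE 0.14, 0.206), Gbx1 -0.09 (SE 0.17, 0.727) and Isl1 0.20 (SE 0.087, 0.136, limma). Without TCRb-/- of experiment 2 the value was -0.15 for Chat and -0.18 for Slc18a3, and without WT of experiment 1 that of Chat was -0.023. Slc18a3 passed without WT of experiment 2 (-0.50, adjusted p 0.0319). The acetylcholine-making and transporting genes thus had negative values and Ache, Lhx8 and Isl1 positive ones. Experiment 2 libraries lay entirely below those of experiment 1 for Slc18a3 and Slc5a7 (37.2% of all genes) and entirely above for Ache and Isl1 (30.1%).

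**Figure D4:**
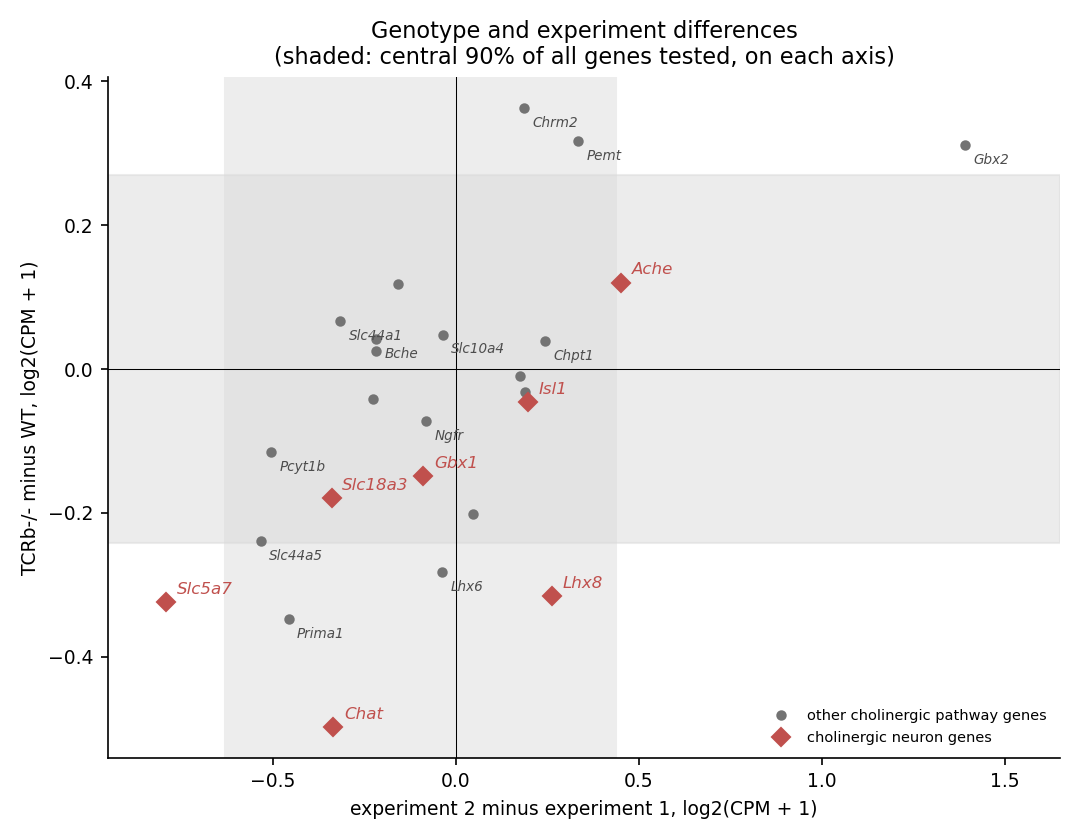
Difference between genotypes (vertical) against difference between experiments (horizontal), both on the log2(CPM + 1) scale, for the 7 cholinergic neuron genes (red diamonds) and 18 other cholinergic pathway genes (grey points), with the central 90% of all genes tested shaded on each axis. Chat is the lowest point by genotype at -0.50, and Gbx2 the farthest by experiment at 1.39.

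Other genes of the cholinergic pathway were taken from a list of 22, of which 20 were listed and 18 tested. By genotype, 0 of 18 passed in limma in both fits. An unadjusted p under 0.05 was found for 0 of 18 without the block and for 3 of 18 with it, against 0.309% and 5.64% of all genes. Lower in TCRb-/- in both experiments were 6 of 18, against 24.5% of all genes, and higher in both 4 of 18, against 27.0%. The median log2 difference of the 18 was 0.0078. Ngfr, the low-affinity neurotrophin receptor and a marker of basal forebrain cholinergic neurons, had 2.89 and 1.85 against 2.17 and 2.86 CPM in TCRb-/- and WT, and went opposite ways in the 2 experiments.

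Lhx6, a factor related to Lhx8 that marks ventral forebrain GABA neurons, had 78.1 and 75.9 CPM in TCRb-/- against 94.999 and 92.7 CPM in WT. Its log2 difference of -0.28 had an unadjusted p of 0.00468 with the block (adjusted 0.848, limma). Prima1, which anchors acetylcholinesterase to the membrane, had the lowest difference of the list at -0.35 with all libraries, with 4.23 and 2.301 CPM in TCRb-/- against 4.77 and 3.85 CPM. Without TCRb-/- of experiment 2 its difference was -0.016. Slc44a5, a choline transporter-like gene, had a difference of -0.24, and of 0.11 without that library. Fits without it had no block and unbalance the experiments. Within experiments 1 and 2 the difference was -0.14 and -0.55 for Prima1 and -0.077 and -0.40 for Slc44a5. Slc10a4, a vesicular transporter-like protein of cholinergic terminals, was almost level between the genotypes at 21.2 and 20.01 against 19.8 and 19.9 CPM (log2 difference 0.05).

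With all libraries, the highest differences were those of Chrm2, the muscarinic receptor through which acetylcholine limits its own release, at 0.36, of Pemt, which makes phosphatidylcholine, at 0.32, and of Gbx2 at 0.31. Chrm2 had 21.6 and 29.1 CPM in TCRb-/- and 19.6 and 19.0 CPM in WT, with the genotypes apart, and TCRb-/- of experiment 2 was the highest. Without that library, in a fit that unbalances the experiments, the differences were 0.15 for Chrm2, -0.081 for Pemt and -0.67 for Gbx2. Bche, butyrylcholinesterase, had 2.93 and 2.75 against 3.24 and 2.28 CPM.

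Between experiments, 3 of 18 pathway genes passed in limma, 1 higher and 2 lower in experiment 2, against 23.7% of all genes, 8.95% higher and 14.7% lower. Gbx2, a homeodomain gene also used by the thalamus, rose by 1.39 (SE 0.26, adjusted p 0.0117), from 6.67 to 28.9 CPM in TCRb-/- and from 8.20 to 15.2 CPM in WT. Pcyt1b, which makes CDP-choline, fell by 0.51 (adjusted p 0.0120), and Slc44a1, a choline transporter, fell by 0.32 (0.0154). Slc44a5 at -0.53 and Prima1 at -0.46 did not pass (0.0855 and 0.154), and were -0.33 and -0.18 without TCRb-/- of experiment 2. Gbx2 lost its call without TCRb-/- of experiment 1 (adjusted p 0.0582, limma), and Pcyt1b without WT of experiment 1 (0.0573). Slc44a1 lost it without TCRb-/- of experiment 1 (0.0566) and without WT of experiment 2 (0.0507). Among positive differences, Pemt at 0.33 and Chpt1, a choline phosphotransferase, at 0.24 did not pass (0.360 and 0.0839). With no mean-variance trend 0 of the 18 passed, without TCRb-/- of experiment 1 there was 1, and without WT of experiment 2 there were 7.

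Markers of other regions and cells that the dissection could hold are given beside these results. By genotype, 0 genes of any marker list passed in limma without the block. The 17 striatum markers summed to 6324 and 1490 CPM in TCRb-/- and 5668 and 3354 CPM in WT of experiments 1 and 2. Of them 17 of 17 were called between experiments, against 23.7% of all genes. Ppp1r1b and Penk led that list, and none of its genes was at 0. The striatum sum had its lowest value in TCRb-/- of experiment 2, where Chat, Slc18a3 and Slc5a7 were also at their lowest. In experiment 1 the striatum sum was higher in TCRb-/- than in WT. There the ratios of TCRb-/- to WT were 0.627 for Chat, 0.966 for Slc18a3, 0.874 for Slc5a7 and 0.764 for Lhx8. They were 0.745 for Gbx1, 1.02 for Ache and 1.05 for Isl1. The part of striatal tissue in the cholinergic values was not tested beyond these numbers.

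Of 7 medial habenula markers, 5 were listed, summing to 43.0 and 56.1 CPM in TCRb-/- and 53.5 and 62.5 CPM in WT. Its defining gene Pou4f1 was not among the listed 5 and so was not analysed here. Tac2 and Nr4a2, which other neurons also make, gave most of that sum, and no listed marker was at 0. The other listed markers, 3 of 5, were highest in TCRb-/- of experiment 2, unlike the sum. Gpr151 had 2.07 and 6.35 CPM in TCRb-/- and 2.21 and 3.04 CPM in WT. Chrnb4 had 0.569 and 2.90 against 0.839 and 1.88 CPM, and Chrna3 had 1.02 and 2.95 against 1.98 and 2.24 CPM. Thalamus markers summed to 426 and 875 CPM in TCRb-/- and 430 and 563 CPM in WT, with 8 of 8 highest in TCRb-/- of experiment 2. Choroid plexus markers summed to 2189 and 7003 CPM in TCRb-/- and 1339 and 4263 CPM in WT. Of these markers 17 of 17 were higher in TCRb-/- in both experiments, against 27.0% of all genes. Cortex and hippocampus markers summed to 241 and 72.9 CPM in TCRb-/- and 304 and 69.1 CPM in WT. What these levels contribute to the cholinergic values was not tested.

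Septum markers other than the members, 9 of 10 listed and led by Sst and Nts, summed to 446 and 485 CPM in TCRb-/- and 393 and 483 CPM in WT. Both experiments had a higher level in TCRb-/- for 6 of these 9, and a lower level for 0 of 9. Of all genes, 27.0% were higher in both and 24.5% lower in both. The same shares stand beside the counts of the lists below, which are descriptive. Markers of GABA neurons, the other main neurons of the medial septum, summed to 1212 and 1284 CPM in TCRb-/- and 1465 and 1496 CPM in WT. Gad1 and Gad2, which make GABA, led them, and 3 of the 4 were lower in TCRb-/- in both experiments. Neuronal markers in general summed to 5993 and 6054 CPM in TCRb-/- and 6587 and 6179 CPM in WT, with 4 of 6 lower in both experiments. Astrocyte markers summed to 882 and 842 CPM in TCRb-/- and 776 and 787 CPM in WT, and 4 of 5 had the higher level in TCRb-/- each time. Microglia markers summed to 102 and 89.9 CPM in TCRb-/- and 94.96 and 81.2 CPM in WT, where 3 of 5 had the higher level in TCRb-/- each time. Between experiments 1 of 5 microglia markers was called, against 23.7% of all genes. Calls were 16 of 17 for choroid plexus, 6 of 9 for cortex and hippocampus, 5 of 8 for thalamus and 1 of 5 for habenula. They were 4 of 6 for neurons in general, 3 of 9 for septum, 1 of 4 for GABA neurons and 0 of 5 for astrocytes.

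**Figure D5:**
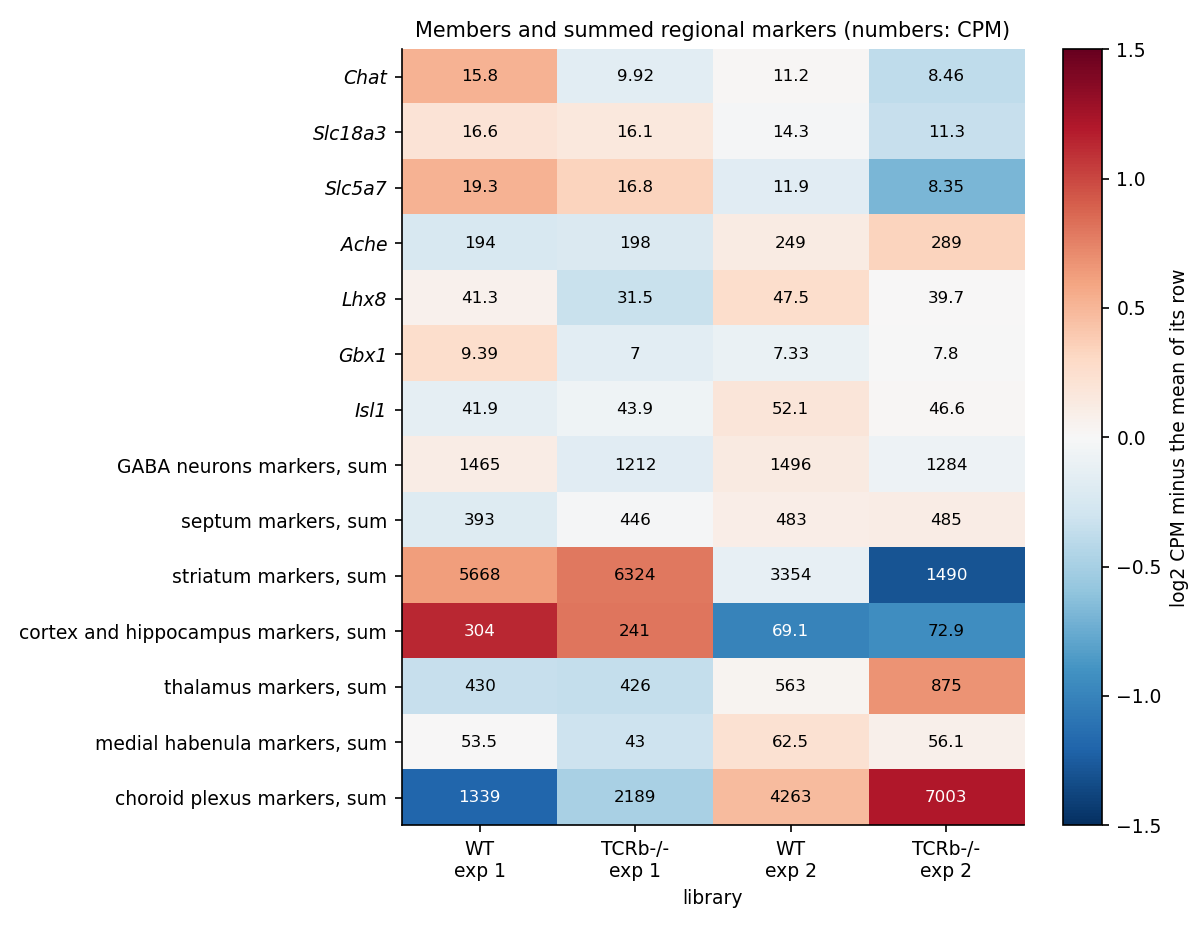
Levels of the 7 members and summed levels of regional and neuronal marker lists in each library (columns), with the CPM printed in each cell and the colour giving the log2 CPM minus the mean of its row. Striatum markers range from 1490 to 6324 CPM and choroid plexus markers from 1339 to 7003 CPM, far wider than any member.

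Likeness to Chat was measured as the root mean square distance between the profiles of log2(CPM + 1) over the 4 libraries, each centred on its mean. The 5 genes nearest to Chat were D930016D06Rik (distance 0.038), Ankfn1 (0.057), Zfpm2 (0.071), Ndst4 (0.074) and Ipo7 (0.079). Zfpm2, for example, had 6.67 and 5.40 CPM in TCRb-/- and 9.39 and 6.89 CPM in WT. No other member ranked among the 5 nearest genes. Slc18a3, at a distance of 0.20, was number 749 of 13911 genes, followed by Gbx1 (1083), Slc5a7 (3783), Lhx8 (5983), Isl1 (9303) and Ache (12960). With 4 libraries this is a description of few points, and many genes are close to any given profile.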

How the data were processed

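Total RNA from the cleared lysate of pooled septal tissue was sequenced, per the labels' protocols, with a SMARTer ultra-low-input kit on a HiSeq2500. The submitters' processing notes name mm10, HISAT2 2.1.0, SAMtools 1.3, HTSeq 0.9.1, R 4.0.5 and limma 3.46.0. Their roles, the choice of rows and the use of strand are not given there. The deposited values were log2 CPM. The values fit a log2 of reads plus 0.5 over the library total plus 1, which gave whole reads for 100.0% of values within 0.001 reads. The 17 spike-in rows were left out.

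Reads were expressed as log2(CPM + 1), which understates changes of low genes, and the genes averaging 1 CPM or more were fitted with limma 3.58.1 in R 4.3.3 (empirical Bayes with a mean-variance trend, two-sided, Benjamini-Hochberg over 13912 genes, threshold 0.05). The code was tested on simulated reads with large changes between genotypes and no difference between experiments. That checks the code, and not its power for differences of the sizes seen here. Genotype, or experiment, was the only term. The labels give the experiment as a batch, so replicate numbers pair the libraries, and deviations of same-numbered libraries correlated at 0.719 across genes. The fit with this block was an alternative, beside other pseudocounts (0.1 and 5), filters (none and 10 CPM), scalings, moderation and voom weights on the recovered reads, the deposited values as they stand, and leaving out each library. Counting intervals are exact (Clopper-Pearson, 95%). Exon lengths come from GENCODE M21. Python 3.11.15 with scipy 1.17.1 was used for the rest.

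The members and gene lists were chosen with earlier results of these data known. All members were named. Of the other pathway genes, those named were the 3 highest and 3 lowest differences in each comparison, those past the threshold, and Ngfr, Slc10a4, Bche and Chrm2 (Nkx2-1 was not analysed here, and a few pathway genes are not reported here). Of each marker list the 2 most abundant genes were eligible, and the 5 genes most like Chat were named. The remaining listed medial habenula markers are given outside that rule, because they differ from the sum of their list. Oligodendrocyte markers summed to 9431 and 8113 CPM in TCRb-/- and 8403 and 8641 CPM in WT of experiments 1 and 2. Endothelial markers summed to 13.3 and 12.2 against 10.3 and 8.36 CPM. In either comparison 0 genes of these lists were called, against 0.0% of all genes by genotype and 23.7% between experiments.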

Additional observations from a re-analysis of the deposited data

Results flagged for a closer look

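The difference between TCRb-/- and WT had opposite signs in the 2 experiments for 7 of the members and named pathway genes. Each experiment has 1 library per genotype, so the difference between experiments was not tested. On the log2(CPM + 1) scale Gbx1 was at -0.38 in experiment 1 and 0.079 in experiment 2, and Isl1 at 0.064 and -0.16. Ngfr was at 0.29 and -0.44, Bche at -0.11 and 0.19, Chpt1 at -0.11 and 0.19, Gbx2 at -0.26 and 0.88, and Pemt at -0.14 and 0.78. Over all genes tested, 6739 of 13912 had opposite signs, beside 2 of 7 members and 8 of the 18 pathway genes tested, named or not.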

How the results depend on the processing

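With all 4 libraries, 191 of 194 values of the members kept their direction and side of the threshold, and 319 of 326 values of the named pathway genes. By genotype the count of genes called was 0, and it was 2 with the replicate block, also with a pseudocount of 0.1, quantile normalization or voom weights added, and 1 with the block and no filter. The block called no member and no pathway gene by genotype. Between experiments the count was 629 of all genes, 0 members and 0 pathway genes with no mean-variance trend. Lhx8 passed between experiments with the block and quantile normalization (0.33, adjusted p 0.0312). Quantile normalization, alone or with the block, turned the experiment difference of Lhx6 to 0.0034 and that of Slc10a4 to 0.060. The cause was not tested. Gbx1 has a mean under 10 CPM and so has no value under the stricter filter.

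Leaving out 1 library leaves 1 sample in a group, assumed to vary like the other, and unbalances the experiments by construction. These fits had no block, so a genotype difference in them takes in part of the difference between experiments. Ranges of called genes were 0 to 38 by genotype (38 without TCRb-/- replicate 1, 1 without TCRb-/- replicate 2) and 1379 to 3395 between experiments (1379, 1797 and 1680 without TCRb-/- replicates 1 and 2 and WT replicate 1). Members called between experiments ranged from 1 to 3 and pathway genes from 1 to 7. By genotype, with no member called, ranges that crossed 0 were -0.15 to 0.39 for Ache, -0.31 to 0.0096 for Gbx1, -0.20 to 0.11 for Isl1, -0.42 to 0.057 for Slc18a3 and -0.79 to 0.14 for Slc5a7, and Chat ranged from -0.73 to -0.27. Among pathway genes they were -0.14 to 0.23 for Bche, -0.16 to 0.23 for Chpt1, -0.67 to 1.29 for Gbx2, -0.30 to 0.15 for Ngfr, -0.37 to 0.14 for Pcyt1b, -0.081 to 0.71 for Pemt, -0.10 to 0.24 for Slc44a1 and -0.59 to 0.11 for Slc44a5. Between experiments they were -0.11 to 0.48 for Chrm2, -0.28 to 0.10 for Gbx1, -0.18 to 0.10 for Lhx6, -0.30 to 0.14 for Ngfr, -0.055 to 0.72 for Pemt and -0.080 to 0.0082 for Slc10a4. Depth limits low pathway genes such as Slc44a5 (31 to 88 reads per library) and, among the members, Gbx1.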

Other observations

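The deposited rows were in the same order in every file and not alphabetical, and the sources used here do not explain the order. The row number correlated with the p-value by genotype in limma at a Spearman rho of 0.977 with the experiment as a block and 0.929 without it, across 13912 genes, which are not independent replicates. Chat stood on row 64 of 15426, Lhx8 on row 126 and Slc5a7 on row 744, with Ache on row 2491, Slc18a3 on row 3803, Gbx1 on row 5087 and Isl1 on row 10126. By the p-value of the blocked fit Chat was number 91 and Lhx8 number 111 of the genes tested.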
